A study of Rattus norvegicus with 8 samples.

Results

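The expression of 10 rat genes that repair alkylated and oxidized DNA bases (Mgmt, Alkbh2, Alkbh3, Mpg, Ung, Ogg1, Apex1, Polb, Xrcc1 and Parp1) was examined in lung tumors induced by NNK, a carcinogenic nitrosamine of tobacco smoke. The genes were chosen by name, and their probes were those of the Arraystar rat lncRNA array whose RefSeq accession belongs to the gene. A probe was found in this way for 9 of the 10 genes, out of 13888 genes with a probe named by accession, and Xrcc1 was not analysed here. Each of the 9 genes was measured by 1 probe printed in 1 spot. The samples were 3 lung tumor tissues and 3 matched normal lung tissues of male F344 rats in the NNK treatment group, and a clot from whole blood of 1 control rat and of 1 rat of the NNK treatment group, all collected at week 95. The normal lung also came from NNK-treated rats, so no lung of an untreated rat is among these arrays, and the ages of the rats are not given in the sources used here. According to the study's methods the tumors were moderately differentiated adenocarcinomas. The description of the blood clot from the NNK treatment group repeats that of a lung cancer tissue, whereas its title, source and tissue name a clot, and it was used as a clot.

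NNK is activated in the body to species that methylate DNA or attach larger pyridyloxobutyl groups to it. Alkyl groups on guanine can be removed directly by the protein Mgmt, which is used up by the reaction, and the dioxygenases Alkbh2 and Alkbh3 remove certain methyl groups by oxidation. Other damaged bases are handled by base excision repair, in which a glycosylase (Mpg, Ung or Ogg1) cuts out the base, Apex1 cuts the strand at the empty site, Polb fills the gap, and Parp1 and the scaffold protein Xrcc1 gather the repair enzymes at the strand break.

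The promoters of Apex1, Parp1 and Mgmt are shown as the 250 bases before the transcription start, in the direction of the gene. Apex1 and Parp1 alone of the 9 genes rose more than 2-fold in all the alternative settings tried for the lung comparison. Mgmt differed most between the blood clots among the genes without an outlier mark. The sequences are those of RefSeq on the build GRCr8, which is a later build than that of the array's design. The table used here held the promoters of 9 of the 10 genes, without Polb. Capitals mark the motifs searched on both strands, which were the GC box GGGCGG, the CCAAT box, the E-box CACGTG, the ETS motif CCGGAAG, the cyclic AMP response element TGACGTCA and the E2F motifs TTTCCCGC, TTTGGCGC and TTTCGCGC. The Apex1 promoter lies at chr15:26617976-26618225 on the plus strand, the Parp1 promoter at chr13:94839234-94839483 on the plus strand and the Mgmt promoter at chr1:201140582-201140831 on the plus strand.
Apex1: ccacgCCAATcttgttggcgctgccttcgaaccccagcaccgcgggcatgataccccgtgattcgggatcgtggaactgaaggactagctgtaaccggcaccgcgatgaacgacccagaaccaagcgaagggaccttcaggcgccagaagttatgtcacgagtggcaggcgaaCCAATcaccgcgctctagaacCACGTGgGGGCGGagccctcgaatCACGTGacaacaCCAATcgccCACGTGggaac
Parp1: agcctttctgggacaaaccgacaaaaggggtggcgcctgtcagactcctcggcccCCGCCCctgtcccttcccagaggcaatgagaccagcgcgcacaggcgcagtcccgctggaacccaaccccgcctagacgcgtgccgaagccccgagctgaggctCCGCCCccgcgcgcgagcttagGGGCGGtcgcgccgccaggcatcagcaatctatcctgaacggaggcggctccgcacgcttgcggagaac
Mgmt: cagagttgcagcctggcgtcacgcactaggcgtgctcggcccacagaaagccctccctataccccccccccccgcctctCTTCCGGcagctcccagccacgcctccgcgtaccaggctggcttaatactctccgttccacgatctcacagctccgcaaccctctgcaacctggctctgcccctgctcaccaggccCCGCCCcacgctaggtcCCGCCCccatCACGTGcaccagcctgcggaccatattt

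Apex1 had 3 CCAAT boxes, 3 E-boxes and 1 GC box in this window. Parp1 had 3 GC boxes and none of the other motifs, and Mgmt had 2 GC boxes, 1 E-box and 1 ETS motif. A GC box was present in 7 of the 9 promoters, against 30.5% of all 33469 promoters of the table, and a CCAAT box in 4 of 9, against 34.0%. The E-box was found in 3 of 9, against 5.59%, and the ETS motif in 3 of 9, against 7.27%. The cyclic AMP response element (1.59% of all promoters) and the E2F motifs (1.41%) occurred in 0 of the 9. The GC content of the 9 windows was between 52.8% and 68.8%, with a median of 61.2% against 51.2% over all promoters, and their median number of CG dinucleotides was 17 against 5. These matches describe the letters of the windows and not binding sites. Ung, whose window lies at chr12:48154046-48154295 on the minus strand, and Alkbh2, at chr12:48156604-48156853 on the plus strand, are neighbours that are transcribed away from each other, with 0 annotated genes between them.

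The signal of each spot was given by the scanner software after background subtraction, and its log2 values were quantile normalized over the 6 lung arrays and, apart from them, over the 2 blood arrays. All 9 genes were well above background on all 8 arrays. Before normalization the lung arrays had median signals of 25.0 to 35.6, the control clot one of 11.8 and the NNK clot one of 32.0. The 3 normal lung arrays, and likewise lung tumor arrays 2 and 3, differed from each other by less than the noise between spots of the same probe (ratios of observed to expected squared difference of 0.467 to 0.787 and of 0.466), whereas tumor array 1 differed from tumor arrays 2 and 3 at ratios of 3.03 to 3.36. These arrays were therefore counted as 1 normal lung sample and 2 lung tumor samples in every mean ± SD, and the fits were run on the 6 arrays and again with such arrays counted once. The p values measure only the spread between these samples, which may be technical. By the scan times in the file headers, the normal lung arrays and tumor array 1 were scanned together in scan 1, tumor arrays 2 and 3 in scan 2 and both blood arrays in scan 3, so the difference of tumor array 1 from the other tumor arrays cannot be told apart from the scan. Of the spots well above background, the scanner software marked 4.92% to 8.62% as outliers in normal lung and 15.9% to 25.3% in lung tumor. Marked spots were left out, except for Mpg, Ung and Ogg1 in lung and Ogg1 in blood, which then had too few values and whose values were taken from the same analysis with marked spots kept.

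Of the 9 genes, 6 were significantly higher in lung tumor than in normal lung and 0 were lower, by limma over the 6 arrays with the Benjamini-Hochberg adjusted p over all probes tested. Where near-identical arrays were counted once, as 1 normal lung and 2 lung tumor samples, 2 of the 9 genes, Apex1 and Parp1, were called higher, against 6.31% of 12327 probes. Over the 6 arrays Parp1, Mpg and Apex1 rose more than 2-fold, Ung, Polb and Alkbh3 rose by less, and Mgmt, Alkbh2 and Ogg1 did not pass the test. Large parts of the array moved as well. Among the 6 genes tested without marked spots, 4 were higher, against 33.7% of the 12471 probes tested, and 0 lower, against 31.4%. Among the 3 genes tested with marked spots kept, 2 were higher, against 34.5% of 15803 probes, and 0 lower, against 31.6%. A rise of at least 2-fold was reached by 2 of the 6, against 13.5% of all probes, and by 1 of the 3, again against 13.5%. A fall of at least 2-fold was reached by 0 of the 6, against 15.5%. All 3 tumor arrays lay above all 3 normal arrays for 7 of the 9 genes, against 38.3% of all probes. The median log2 fold change was 0.77 over the 9 genes and 0.61 over the 6, while that of all probes was 0.065 without marked spots and 0.064 with them.

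**Figure D1:**
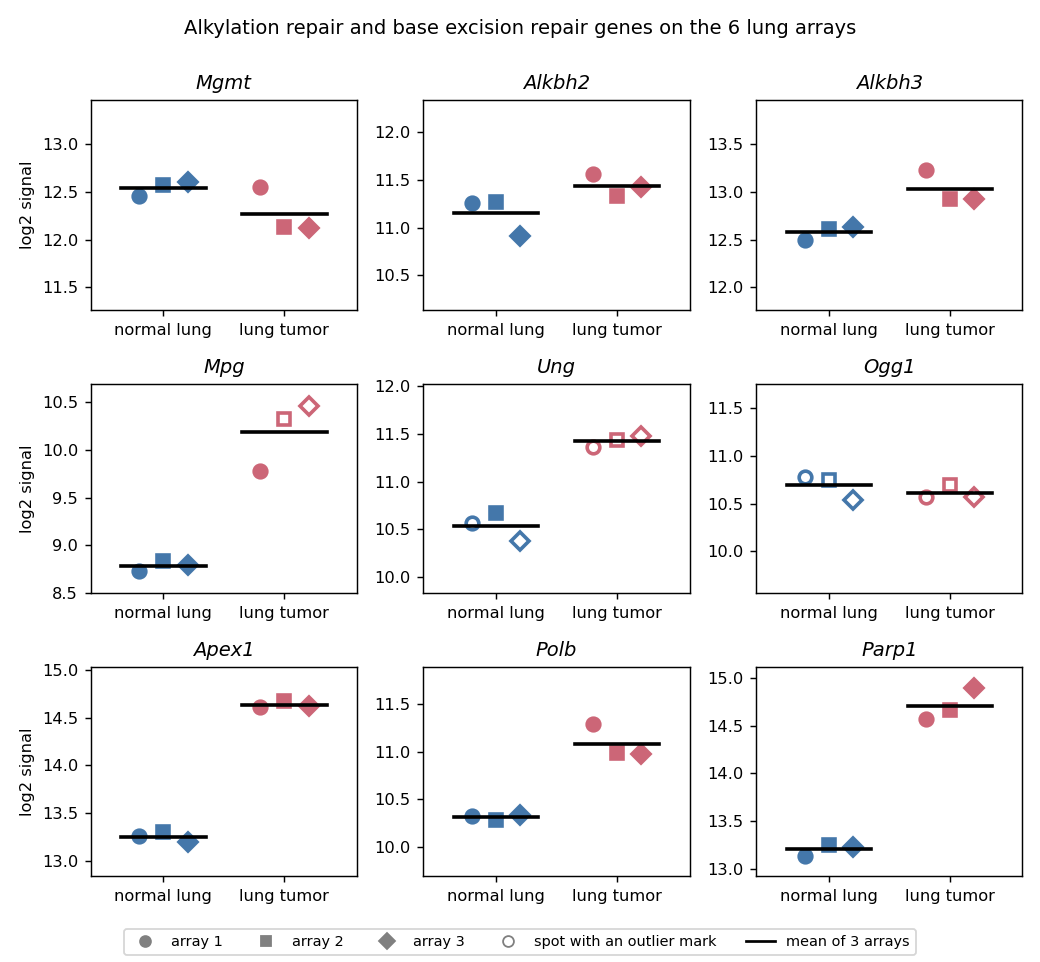
Log2 signal (y axis, quantile normalized; each panel spans the same range of log2 units) of the 9 genes on the 3 normal lung and 3 lung tumor arrays, with open symbols for spots with an outlier mark and a line at the mean of the 3 arrays. The tumor arrays of Apex1 (14.61 to 14.67) and Parp1 (14.57 to 14.90) are well separated from normal lung, while those of Mgmt and Ogg1 overlap with it.

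With regard to direct reversal, Mgmt had a log2 signal of 12.46, 12.58 and 12.60 on normal lung arrays 1, 2 and 3, and of 12.55, 12.13 and 12.12 on lung tumor arrays 1, 2 and 3. Tumor array 1 was at the level of normal lung and the other tumor arrays were below it, so the groups overlapped. The log2 fold change was -0.28 (limma standard error 0.136, adjusted p = 0.123), with a 95% interval from -0.62 to 0.063. Without tumor array 1 it was -0.42 (adjusted p = 0.0039 by limma), and with the scan as a block, where tumor array 1 alone is compared with normal lung of its own scan, it was 0.0046 (adjusted p = 0.964 by limma).

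Alkbh2, which acts mainly on double-stranded DNA, was measured at 11.26, 11.27 and 10.91 in normal lung and at 11.56, 11.33 and 11.43 in lung tumor. The tumor arrays were all above the normal arrays, but by little, and the log2 fold change of 0.29 (95% interval -0.022 to 0.61, limma standard error 0.125) had an adjusted p of 0.0888. With the normexp background correction it was 0.46 and passed the test (adjusted p = 0.0025 by limma).

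Alkbh3, which prefers single-stranded DNA and RNA, had log2 signals of 12.50, 12.61 and 12.63 in normal lung and of 13.23, 12.93 and 12.93 in lung tumor. The groups did not overlap, with tumor array 1 the highest. Its log2 fold change was 0.45, or 1.36-fold (limma standard error 0.105, adjusted p = 0.013). The call was lost in the paired form of the methods' t-test over the matched tissues (adjusted p = 0.14), with a 75th percentile shift in place of quantile normalization (0.28, adjusted p = 0.0937 by limma) and where near-identical arrays were counted once (adjusted p = 0.253 by limma).

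Among the glycosylases, Mpg, which removes methylated adenine and guanine, showed log2 signals of 8.73, 8.83 and 8.80 in normal lung and of 9.78, 10.33 and 10.47 in lung tumor. The spots on tumor arrays 2 and 3 carried an outlier mark, and tumor array 1, which did not, was the lowest of the tumor arrays and still above normal lung. The log2 fold change with marked spots kept was 1.40, or 2.65-fold (limma standard error 0.188, adjusted p = 0.00138). In scan 1 alone it was 0.99.

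Ung removes uracil from DNA. It was at 10.56, 10.67 and 10.38 in normal lung and at 11.37, 11.43 and 11.48 in lung tumor, where all 3 spots were marked, as were those of normal arrays 1 and 3. The lung tumor signals lay close together and above all normal signals. The log2 fold change was 0.89, or 1.85-fold (limma standard error 0.0898, adjusted p = 0.000452).

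Ogg1, the glycosylase for oxidized guanine, had a marked spot on all 6 lung arrays. Its log2 signals were 10.78, 10.75 and 10.54 in normal lung and 10.57, 10.70 and 10.57 in lung tumor. The groups overlapped, and the log2 fold change of -0.080 (limma standard error 0.0885, adjusted p = 0.453) had a 95% interval from -0.30 to 0.14. Of these 3 glycosylases, Mpg and Ung rose while the interval of Ogg1 did not reach a 2-fold change in either direction. Among the other glycosylases tested, Neil1 (log2 fold change 1.52) and Tdg (0.52, with marked spots kept) were higher in lung tumor. Nthl1 (-0.56) was lower, and Mutyh (-0.15) did not pass the test. The spots of Tdg were marked on all 3 tumor arrays. In scan 1 alone the log2 fold changes were 2.03 for Neil1, 0.31 for Tdg, -0.34 for Nthl1 and 0.017 for Mutyh.

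Downstream of the glycosylases, the endonuclease Apex1 gave log2 signals of 13.26, 13.30 and 13.20 in normal lung and of 14.61, 14.67 and 14.63 in lung tumor. The tumor arrays lay close together and far above normal lung. With near-identical arrays counted once, lung tumor was at 14.63 ± 0.027 (SD, n = 2) and normal lung at 13.25 (n = 1). The log2 fold change was 1.39, or 2.61-fold (limma standard error 0.0547, adjusted p = 1.73e-05), and 9.37% of all probes tested had a higher one.

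Polb, the polymerase that fills the gap, was at 10.32, 10.29 and 10.34 in normal lung and at 11.29, 10.99 and 10.97 in lung tumor. As for Alkbh3, tumor array 1 was the highest and all tumor arrays were above normal lung. The log2 fold change was 0.77, or 1.70-fold (limma standard error 0.102, adjusted p = 0.00148), and it was 0.98 in scan 1 alone.

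Parp1, which binds strand breaks and marks the site with poly(ADP-ribose), had the highest fold change of the 9 genes over the 6 arrays with quantile normalization, within the 95% interval of Mpg (0.93 to 1.87). With a 75th percentile shift Mpg was higher, at 1.46 against 1.33, and so it was without tumor array 1, at 1.61 against 1.58. The log2 signals of Parp1 were 13.14, 13.24 and 13.22 in normal lung and 14.57, 14.66 and 14.90 in lung tumor, with no overlap. Counted once, lung tumor was at 14.68 ± 0.15 (SD, n = 2) and normal lung at 13.20 (n = 1). The log2 fold change was 1.51, or 2.84-fold (limma standard error 0.100, adjusted p = 0.000102), and 8.11% of all probes tested had a higher one.

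With the near-identical arrays counted once, only Apex1 (1.38, adjusted p = 0.046 by limma) and Parp1 (1.47, adjusted p = 0.0493 by limma) of the 9 genes passed the test. In it the lone normal lung sample is assumed to vary like the lung tumor samples. Mpg had an adjusted p of 0.108, Ung of 0.0832, Polb of 0.132 and Alkbh3 of 0.253 in the same limma fit, with log2 fold changes of 1.30, 0.87, 0.82 and 0.50.

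**Figure D2:**
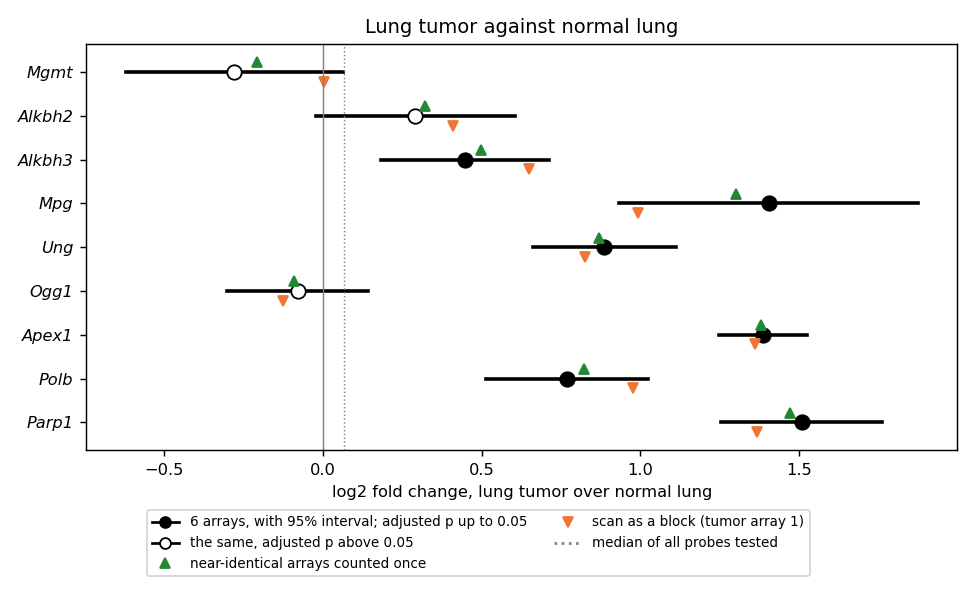
Log2 fold change of lung tumor over normal lung (x axis) for the 9 genes, with the 95% interval from limma over 6 arrays, and the values with near-identical arrays counted once and with the scan as a block. Apex1 and Parp1 are above 1 in all of these, and Mgmt moves from -0.28 to 0.0046 when only arrays of scan 1 are compared.

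The other measured genes of DNA repair were described in the same comparison. Of 51 such genes tested, 22 were higher and 6 lower in lung tumor, with a median log2 fold change of 0.15. For the 31 of them tested without marked spots, 14 were higher and 5 lower, beside the shares of 33.7% and 31.4% of all probes. Of the other genes of base excision repair, 11 of 19 were higher and 3 lower. At least 2-fold higher among them were Parp3, a relative of Parp1 that acts at double-strand breaks, Neil1, a glycosylase for oxidized pyrimidines, and Fen1, the nuclease that removes the displaced flap in long-patch repair. Parp3 was at 10.14, 10.10 and 10.10 in normal lung and at 11.69, 11.63 and 11.74 in lung tumor (log2 fold change 1.57, adjusted p = 1.13e-05 by limma). Neil1 was at 5.73, 5.43 and 5.61 in normal lung and at 7.63, 6.78 and 6.92 in lung tumor (log2 fold change 1.52, adjusted p = 0.0031 by limma). Fen1, with marked spots kept, was at 11.71, 11.63 and 11.86 in normal lung and at 13.32, 13.20 and 13.12 in lung tumor (log2 fold change 1.48, adjusted p = 5.58e-05 by limma). Genes were picked here only where the tumor and normal arrays did not overlap, so their separation follows from the choice. With near-identical arrays counted once, Parp3 (adjusted p = 0.0399 by limma) and Fen1 (0.04) kept their call and Neil1 (0.109) lost it.

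The counts of the smaller lists are to be read beside the 34.5% of all probes that were higher and the 31.6% that were lower with marked spots kept. Of the other genes for alkylated bases, 2 of 5 were higher and 1 was lower. The lower gene was Alkbh7, a mitochondrial relative of Alkbh2 and Alkbh3, with log2 signals of 11.28, 11.26 and 11.23 in normal lung and of 9.75, 9.87 and 9.68 in lung tumor (log2 fold change -1.48, adjusted p = 2.65e-05 by limma). Alkbh7 and Alkbh3 thus changed in opposite directions. Of 5 genes that clean the nucleotide pool, 3 were higher and 0 lower, and Dctpp1, which degrades modified cytosine triphosphates, rose most, with a log2 fold change of 2.89 (adjusted p = 5.29e-06 by limma). For nucleotide excision repair 3 of 12 genes were higher and 1 lower, among them Ercc6 (1.50, adjusted p = 0.00049 by limma) and Ercc8 (-1.25, adjusted p = 0.00104 by limma), both of the transcription-coupled branch. Counted once, Alkbh7 (adjusted p = 0.0425), Dctpp1 (0.0347) and Ercc6 (0.0462) kept their call by limma and Ercc8 (0.111) lost it. In mismatch repair 1 of 5 was higher and 0 lower, and of the translesion polymerases and their partners 2 of 5 were higher and 1 lower.

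**Figure D3:**
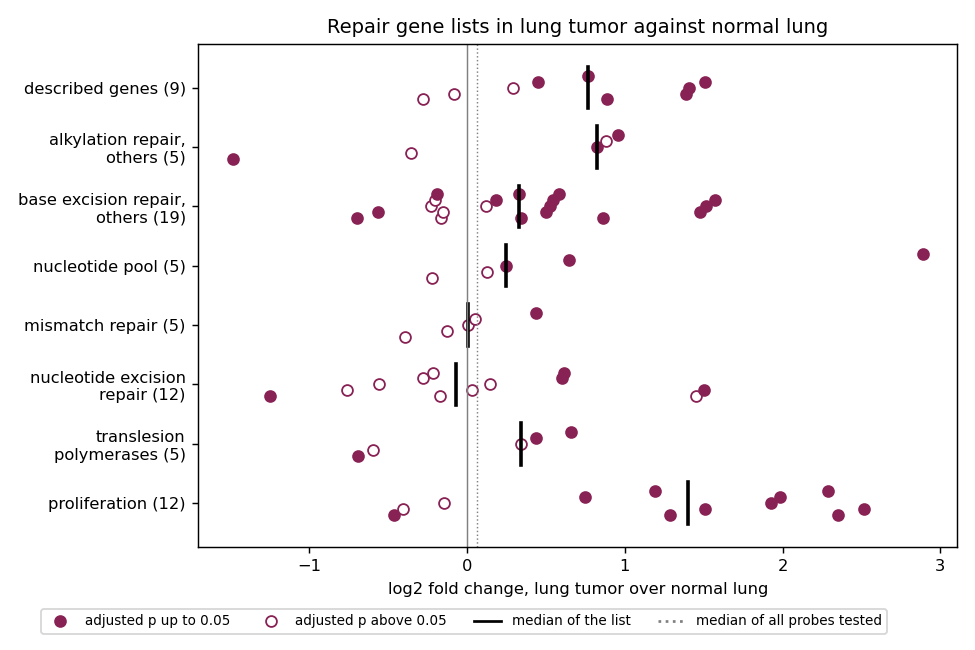
Log2 fold change of lung tumor over normal lung (x axis) for the 9 described genes and for the other measured genes of each repair list and of proliferation, with the number tested in brackets, filled points for an adjusted p up to 0.05 and a black line at the median of the list. The median is 0.77 for the 9 genes, 0.82 for the other alkylation repair genes and 1.40 for proliferation. It is 0.33 for the other base excision repair genes, 0.25 for the nucleotide pool and 0.34 for the translesion polymerases. The lists of mismatch and nucleotide excision repair centre near 0.

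Other cell markers moved in the same comparison. Over all probes with marked spots kept, 34.5% were higher and 31.6% lower in lung tumor, beside which all counts here stand. Of 12 proliferation genes, 9 were higher and 1 lower in lung tumor. Their mean log2 signal was between 9.52 and 9.65 on the normal arrays and between 10.67 and 10.90 on the tumor arrays. Cdk1 (log2 fold change 2.52), Ccnb2 (2.35), Kif20a (2.29) and Ccna2 (1.99), which drive or accompany cell division, rose most. The type 2 alveolar markers, of which 7 of 7 exceeded background clearly on every lung array, had a mean log2 signal of 16.6 in normal lung and of 17.1 in lung tumor, with 5 genes higher and 2 lower. Lower in tumor were 5 of 6 type 1 alveolar markers, 4 of 4 endothelial markers, 6 of 6 red cell markers and 5 of 5 liver genes, the last with mean log2 signals of 10.3 to 10.4 in normal lung and of 6.38 to 6.60 in tumor. The remaining type 1 marker, Rtkn2, was higher, at 3.27 to 4.09 in tumor against 2.56 to 2.83 in normal lung. It was well above background on 0 normal and 3 tumor arrays and so passed the filter only through tumor. Of 4 heart muscle genes 3 were higher and 1 lower, and of 4 platelet markers 1 was higher and 3 lower. The heart muscle gene Actc1 was well above background on 0 normal arrays. The platelet markers Ppbp and Gp9 and the liver gene Apoa2 were so on 0 tumor arrays. These genes passed the filter only through the group in which they were higher. The part of these shifts in the values of the repair genes was not tested. In whole tissue, fewer cells of a type and less RNA per cell cannot be told apart.

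In the blood clots, with 1 array per group and no test, Mgmt and Ung were more than 2-fold higher and Ogg1 more than 2-fold lower in the NNK treatment group than in control. Of the 8 genes without a marked spot, 2 were at least 2-fold higher, against 23.1% of 14452 probes compared, and 0 at least 2-fold lower, against 19.1%. With marked spots kept, as for Ogg1, 23.2% of 14680 probes were at least 2-fold higher and 18.9% lower. The median log2 difference over all probes was -0.11. These values have no replicate check.

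Mgmt had a log2 signal of 6.25 in the control clot and of 9.65 in the NNK clot, a difference of 3.40, or 10.6-fold. Before normalization its signal was 49.6 ± 5.5 in control and 1010 ± 101 in the NNK clot, where the error is that of the scanner software for 1 spot. Of the 9 genes Mgmt had the largest difference upward in blood, between 2.57 and 4.71 over the alternative settings. The lung comparison is of another kind, since both tissues came from NNK-treated rats and no untreated lung was measured. In it the log2 fold change of Mgmt, -0.28, did not pass the test. Ung rose from 4.70 to 6.63, a difference of 1.93, or 3.82-fold. Its signal in the control clot, 15.9 ± 2.86 before normalization, was not far from 11.9, the lowest at which a spot of that array was well above background. With the normexp background correction the difference was 0.82, under 2-fold, and over the other settings it reached 3.45.

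Ogg1 was at 8.88 in the control clot, where its spot was marked, and at 4.35 in the NNK clot, a difference of -4.54, or 23.2-fold. Its signal before normalization was 352 ± 35.3 in control and 33.4 ± 7.06 in the NNK clot, where spots were well above background from a signal of 31.1. The NNK value is thus close to background. The difference was -2.61 with normexp and -7.06 with quantile normalization over all 8 arrays.

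The other genes differed by less than 2-fold. Alkbh2 went from 4.91 to 5.80 and Alkbh3 from 6.89 to 7.49, differences of 0.89 and 0.60. With quantile normalization over all 8 arrays these differences were 1.48 and 1.01, past 2-fold. That of Alkbh2 was between 0.29 and 1.58 over the alternative settings and stayed under 2-fold in 4 of 7 of them. Its signal in the control clot, 18.5 ± 3.01 before normalization, was not far from the 11.9 given above for that array. Mpg was lower in the NNK clot, at 9.91 against 10.60 (difference -0.69, or -1.25 with a 75th percentile shift). Apex1 was at 8.23 and 8.10, Polb at 10.43 and 10.51 and Parp1 at 14.45 and 14.51 in the control and NNK clots, with differences of -0.13, 0.076 and 0.055. With the 75th percentile shift Polb and Parp1 changed sign, to -0.52 and -0.97, and Apex1 was lower in all settings.

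Cell markers differed between the blood clots too. The mean log2 signal of the 6 T cell markers was 8.22 in control and 9.59 in the NNK clot, that of the 5 neutrophil markers was 7.76 and 8.64, and that of the 4 platelet markers was 13.1 and 11.8. Among the T cell markers Cd3d (12.73 and 12.47) and Cd5 (4.82 and 3.97) were lower in the NNK clot and the others higher. Cd5 was not well above background in the NNK clot, and the neutrophil marker Ngp in neither clot. The 6 red cell markers were well above background on both blood arrays, with means of 16.9 and 16.6. The part of these differences in the values of the repair genes was not tested. Of 37 other repair genes that were well above background on both blood arrays, 12 were higher by 2-fold or more and 4 lower by 2-fold or more in the NNK treatment group, against 17.9% and 14.7% of the 11767 probes with the same property.

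**Figure D4:**
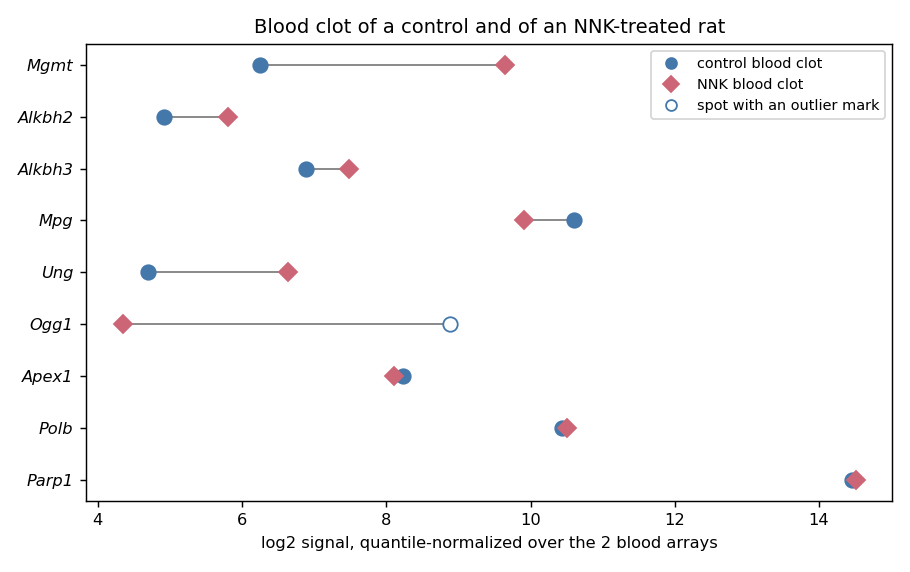
Log2 signal (x axis, quantile normalized over the 2 blood arrays) of the 9 genes in the clot of a control rat and of an NNK-treated rat, 1 array each, with an open symbol for a spot with an outlier mark. Mgmt (6.25 and 9.65), Ung (4.70 and 6.63) and Ogg1 (8.88 and 4.35) are far apart, and Parp1 and Polb nearly coincide in this normalization.

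Across the alternative settings Apex1 had log2 fold changes between 1.20 and 1.49 and Parp1 between 1.33 and 1.63 in lung, and both passed the test in all 19 of them. Mpg ranged from 0.99 to 1.61, Ung from 0.79 to 0.95 and Polb from 0.66 to 0.98. The range of Mgmt was from -0.42 to 0.0046 and that of Ogg1 from -0.31 to -0.034.

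**Figure D5:**
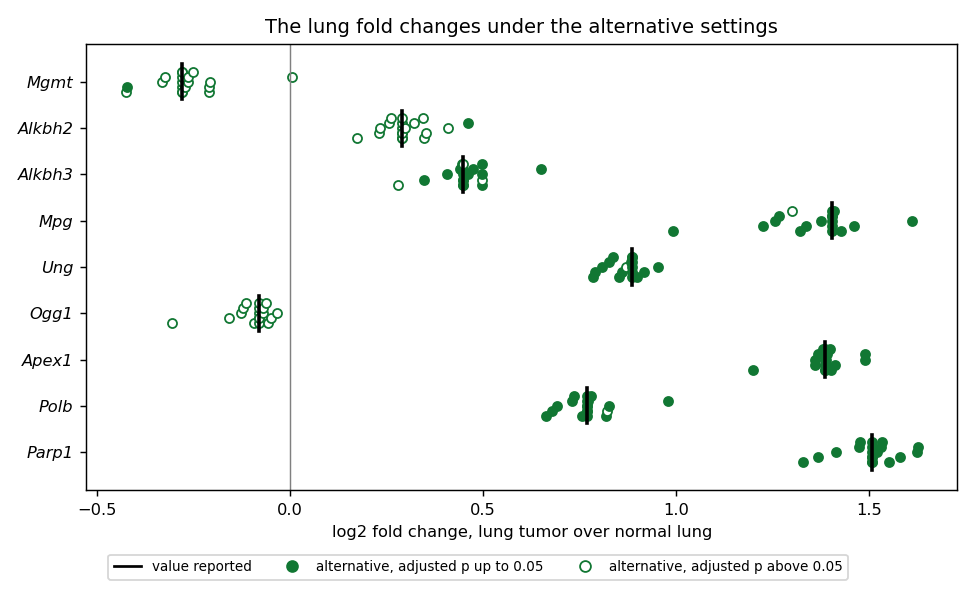
Log2 fold change of lung tumor over normal lung (x axis) for the 9 genes under each alternative setting, with the reported value as a black line and open points for an adjusted p above 0.05. Apex1 and Parp1 have filled points only, and the call of Alkbh3 is lost in 3 of its 19 settings.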

How the data were processed

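For each array the authors deposited Agilent Feature Extraction 10.5.1.1 output, in which the processed signal is a background-subtracted intensity per spot with its error, not normalized from array to array. A further deposited table holds log2 values, which the authors quantile normalized in GeneSpring over all 8 arrays, and it served as an alternative. Control spots were removed, and the log2 processed signals of the 42136 others were quantile normalized and analysed with R 4.3.3 and limma 3.58.1 (lmFit and eBayes, two-sided). Spots with an outlier mark were removed, and none was saturated. A probe counted as well above background with more than 50% of its spots so marked. Probes with this status on 3 or more lung arrays were kept in lung, and on 1 or more in blood. A probe was called at an adjusted p of at most 0.05. Probes were named through RefSeq transcripts of GRCr8 (14274 of 15321 mRNA accessions, 93.2%). The genes and lists were chosen with earlier results of these data known. All 10 genes were to be named, and from other lists up to 4 genes per direction with the largest 2-fold changes past the test. Those from other lists also had to show no overlap of normal and tumor arrays and signal well above background in both groups. The limma fit and its calls were tested on simulated data with independent arrays, unlike the near-identical arrays here. This simulation did not cover the normalization or the blood comparison. The study calls the tissues matched. Same-numbered tissues had correlations of deviations of 0.16, -0.013 and 0.16, and differently numbered tissues had values between -0.18 and 0.13. The scanner files hold no mean signal, so normexp (offset 50) used the median signal.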

Additional observations from a re-analysis of the deposited data

How the results depend on the processing

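Of the lung fold changes of the 9 genes under the alternatives, 159 of 168 kept their direction and their side of the threshold, and of the blood differences 56 of 62 kept their side of a 2-fold difference, with a change of sign within it for Polb and Parp1. Over all probes, 4205 were called higher and 3918 lower. The methods' t-test in its paired form gave 2375 and 2429, and the near-identical arrays counted once gave 778 and 976. Of the other repair genes, 22 were higher and 6 lower, against 14 and 2 with the paired t-test and 4 and 1 with near-identical arrays counted once, which left 2 of the 9 genes called higher. Mgmt changed sign with the scan as a block (0.0046). Leaving out 1 lung array at a time gave between 0 and 1 of the 9 genes lower, the 1 being Mgmt without tumor array 1. In blood, quantile normalization over all 8 arrays put 4 of the 9 genes at least 2-fold higher and normexp 1, and the 75th percentile shift put 2 at least 2-fold lower. The cause of these changes was not tested. With the replicate block, which pairs the tissues by number, Alkbh3 had an adjusted p of 0.0494 by limma and the calls of the 9 genes did not change, whereas the paired t-test left 5 of the 9 called higher, without Alkbh3 (adjusted p = 0.14). Precision is limited by how few arrays there are.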
